A study of Homo sapiens with 18 samples.

Results

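In LNCaP prostate cancer cells that carried EHMT1 with both of its lysine-to-arginine changes, K450R and K451R, the places occupied by the V5-tagged enzyme were compared with the places that carried dimethylated lysine 9 of histone H3 (H3K9me2). All peaks of both lists of this line were used, 14799 for V5 and 907 for H3K9me2, which is 15706 of the 22458 peaks of the whole series. A V5 peak that shared at least 1 bp with an H3K9me2 peak is called enzyme-with-mark, any other V5 peak enzyme-only, and an H3K9me2 peak without a V5 peak mark-only. By this rule 757 V5 peaks were enzyme-with-mark and 14042 enzyme-only, and 133 H3K9me2 peaks were mark-only.

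The line was an LNCaP-tet-EHMT1 stable line in which EHMT1-K450RK451R with a V5 tag was switched on by doxycycline, at 0.5 µg/ml for 2 days. Both antibodies were used on chromatin of the same induced line, with 2 samples each, and the series gave 1 list per antibody. How the replicates entered a list is not known, so no value below has a replicate error and no test across replicates was made. The introduced enzyme was expressed beside the cells' own EHMT1, and uninduced cells of this line were not analysed here. The other lists of the series, used only for comparison, came from lines induced in the same way with wild-type (WT), K450R or K451R EHMT1, and from parental LNCaP cells in which native EHMT1 was precipitated.

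EHMT1, also called GLP, is a histone methyltransferase and a close relative of EHMT2 (G9a), its usual partner. H3K9me2, a product of both, is known as a mark of silent chromatin, at repeats around centromeres and over repressed genes. In cells that are not neurons, both enzymes also work with REST, the repressor that binds an element called RE1 near neuronal genes. ChIP-seq with the V5 antibody shows where the enzyme was cross-linked, and with the H3K9me2 antibody where its product stood out from the surrounding chromatin.

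The highest-ranked enzyme-only and mark-only places are shown as examples chosen by rank, not as the commonest sequences of their classes. The windows reach 100 bp to each side of the summit on GRCh37, plus strand, and the letters come from the reference genome. In the enzyme-only window, in an intron of GCNT1 at chr9:79186705-79186905, the capitals mark the stretch that matched the ribosomal RNA repeat. Such a match was found in 0.249% of enzyme-only and 1.74% of enzyme-with-mark windows. In the mark-only window, between genes at chr19:27739378-27739578, they mark the 21 bases around the summit.
GCNT1 intron, enzyme-only: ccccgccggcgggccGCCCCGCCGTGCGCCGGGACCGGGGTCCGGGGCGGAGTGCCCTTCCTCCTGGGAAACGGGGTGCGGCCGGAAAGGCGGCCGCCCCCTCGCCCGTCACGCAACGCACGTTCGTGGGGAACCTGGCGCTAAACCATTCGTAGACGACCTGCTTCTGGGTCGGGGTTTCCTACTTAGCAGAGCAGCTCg
Chromosome 19, mark-only: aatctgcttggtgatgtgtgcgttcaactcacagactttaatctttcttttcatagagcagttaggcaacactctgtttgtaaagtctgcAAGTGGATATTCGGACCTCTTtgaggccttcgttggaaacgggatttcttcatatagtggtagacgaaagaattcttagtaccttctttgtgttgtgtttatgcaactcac

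The stretches of 30 bases that recurred most often in the enzyme-with-mark and mark-only windows are shown next, since they give the commonest sequence of those classes on either strand. The stretch of the enzyme-with-mark peaks was found in 101 of 748 windows (13.5%) and in 2 of 57175 evenly spaced genome windows. That of the mark-only peaks was present in 5 of 133 windows. Capitals mark the first of several copies of the satellite string ATTCCATTC, in its reverse complement, in the first line.
Enzyme-with-mark, for example chrY:13842649-13842678: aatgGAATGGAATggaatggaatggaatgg
Mark-only, for example chr1:20200608-20200637: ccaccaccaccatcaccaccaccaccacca

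Few V5 peaks carried the mark, whereas most marked places carried V5. Of the V5 peaks, 5.12% (95% Wilson interval 4.77% to 5.48%) overlapped an H3K9me2 peak, and of the H3K9me2 peaks, 85.3% (82.9% to 87.5%) overlapped a V5 peak. These intervals, here and below, cover counting error only. The V5 peaks covered 2063 kb and the H3K9me2 peaks 160 kb, and the 135 kb they shared made up 6.52% of the V5 bases and 84.0% of the H3K9me2 bases. Merged, the peaks gave 14931 places, of which 756 held both, because 15 V5 peaks spanned 2 H3K9me2 peaks, 1 spanned 4, and 1 H3K9me2 peak spanned 2 V5 peaks. The share of V5 peaks depends on how far down its list is read. When the V5 list was held to its 907 strongest peaks, as many as in the H3K9me2 list, 64.4% of them carried the mark, and 66.2% of the H3K9me2 peaks carried V5.

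In the other lines, most V5 peaks carried the mark. H3K9me2 was present at 84.2% of V5 peaks with WT EHMT1, at 85.1% with K450R and at 84.3% with K451R. The number of V5 peaks with the mark in the double-mutant line was close to that of the K451R line, 757 against 725, and above 549 with WT and 542 with K450R. The enzyme-only peaks numbered 103 with WT, 95 with K450R, 135 with K451R and 14042 with both changes. Mark-only peaks were fewest in the double-mutant line, 133, against 243 in WT, 280 in K450R and 546 in K451R. The lists also differed in depth and in how weak a peak they hold, and the part of either in these numbers was not tested. The lowest −log10 p of the peak caller was 3.99 in the V5 list of the double-mutant line. In the other lists of the series it ranged from 5.42 to 6.57. From the genome-wide background of each list, V5 in the double-mutant line was estimated to rest on 22.7 M reads and H3K9me2 on 8.79 M reads. For V5 the estimates were 8.84 M reads in WT, 11.1 M in K450R and 14.1 M in K451R, and for H3K9me2 they were 17.9 M, 14 M and 27.6 M. The double-mutant line thus had the deepest V5 list and the shallowest H3K9me2 list of the 4 lines.

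The mark went with the strength of the V5 peak. Strength is given here as −log10 q, the peak caller's q-value, and as fold enrichment, the pileup of reads at the summit over the local background. Whether an input control set that background is not given in the sources used here, and without one, extra copies of a repeat in these cells would also count as enrichment. The V5 list reached down to a −log10 q of 1.31 and the H3K9me2 list only to 2.01. Of the 928 V5 peaks with a −log10 q under 2, none carried the mark, which allows a share of up to 0.412% (Wilson). The share was 1.17% from 4 to 5, 18.0% from 7 to 10, 33.3% from 10 to 15, 63.8% from 15 to 20 and 80.6% from 20 to 30. Of the 82 V5 peaks at 50 or more, 78 carried it, or 95.1%. The H3K9me2 peaks behaved alike, with V5 at 35.0% of those from 2 to 3, at 83.0% of those from 7 to 10, and at all peaks of 20 or more, which were 106, 69 and 57 in the 3 highest bins.

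**Figure D1:**
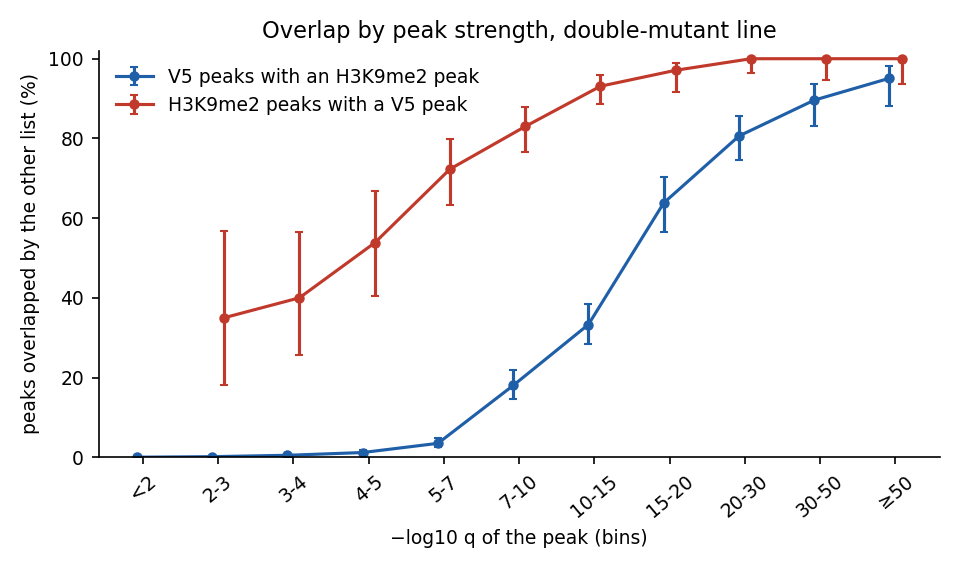
Share of peaks overlapped by the other list of the double-mutant line (percent, y axis) in bins of the peak's own −log10 q (x axis), for V5 peaks (blue) and H3K9me2 peaks (red), with 95% Wilson intervals as bars. The V5 share climbs from 0 of 928 below a −log10 q of 2 to 78 of 82 at 50 or more, while the H3K9me2 share is already 35.0% in its lowest bin.

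Enzyme-with-mark V5 peaks had a median fold enrichment of 6.98 (quartiles 4.62 and 9.96) and a median −log10 q of 19.2. Enzyme-only peaks had a median fold of 4.89 (4.37 and 5.43) and a median −log10 q of 3.05. The ratio of the median folds was 1.43, with an interval of 1.32 to 1.51 from the order statistics of both medians. Among V5 and H3K9me2 peaks with a −log10 q of at least 10, it was 1.11 (0.985 to 1.24), an interval that includes equality. The median width was 162 bp for enzyme-with-mark and 118 bp for enzyme-only peaks, and the median pileup 47 and 9 reads.

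The local background under the peaks also differed. It was the genome-wide value of 0.84 reads under 41.1% of the enzyme-only peaks and under 1.72% of the enzyme-with-mark peaks, whose median background was 3.71 reads. In the H3K9me2 list, a peak on the genome-wide background of 0.325 reads needed 6 reads, or a fold of 5.28, to be listed. The folds of 8887 enzyme-only V5 peaks (63.3%) lay under that value, as did those of 247 enzyme-with-mark peaks (32.6%). A mark of the same fold as V5 at most enzyme-only places was therefore below what the H3K9me2 list could hold on the genome-wide background, and its absence there was not shown.

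At shared places both signals had their summits nearly at the same base and were of like size. The summits of V5 and H3K9me2 lay a median of 8 bp apart (upper quartile 22 bp), and 669 of the 757 pairs (88.4%) lay within 50 bp. The V5 summit was inside the H3K9me2 peak in 738 of the 757 cases. Across these pairs the V5 and H3K9me2 folds had a Pearson r of 0.84 and a Spearman rho of 0.88 (n = 757). This is a description of pairs from 2 lists that share the sequence and mappability of each place. The H3K9me2 fold divided by the V5 fold had a median of 1.06 (quartiles 0.93 and 1.19).

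**Figure D2:**
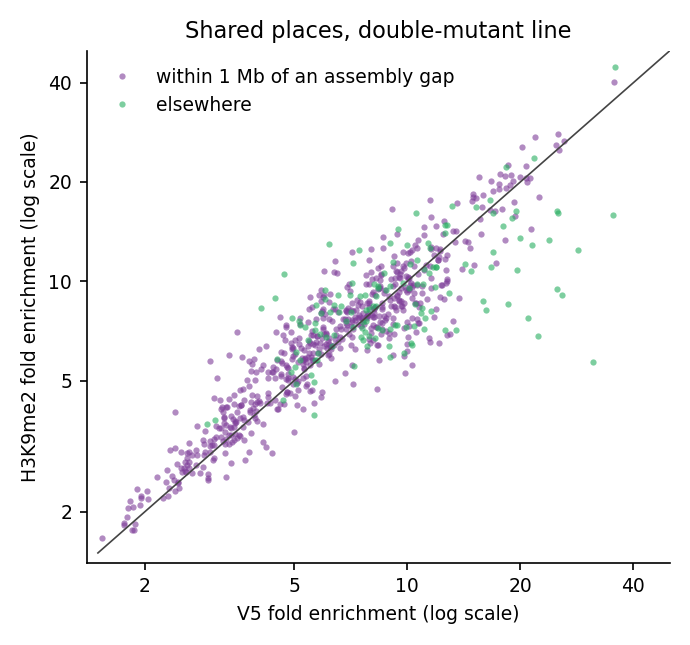
H3K9me2 fold enrichment (y axis) against V5 fold enrichment (x axis), both on log scales, at the 757 enzyme-with-mark V5 peaks; purple points lie within 1 Mb of an assembly gap, green points elsewhere, and the line marks equal folds. The points follow the line, and the 5 points far to its lower right, with V5 folds above 20 and H3K9me2 folds under 10, all match the ribosomal RNA repeat.

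The same places were also taken up by the third antibody. A native EHMT1 peak of parental cells, which hold no V5 tag, overlapped 653 of the 757 enzyme-with-mark peaks (86.3%). At these 653, the median folds were 7.26 for V5, 7.35 for H3K9me2 and 7.14 for EHMT1. Of the enzyme-with-mark peaks, 410 (54.2%) had a peak in all 9 lists of the series and 49 in none but the V5 and H3K9me2 lists of the double-mutant line. The highest-ranked one, in the intron of SENP5 (a protease that removes SUMO from proteins), had folds from 35.8 to 45.2 in all 9 lists. Its window held the satellite string ATTCCATTC. The place between genes at chr9:69710883-69711369 had folds from 19.7 to 24.7, and that at chr9:66970974-66971450 from 19.2 to 23.4. Neither of these windows held a unique stretch of 51 bases, so reads cannot be assigned to a single place there. At chr9:44070639-44070834, inside the pseudogene ANKRD20A7P, they ranged from 32.3 to 40.2. At chrY:13842606-13842846, between genes, they ranged from 19 to 26.1. At each of these 5 places, the range of the 4 V5 folds overlapped that of the 4 H3K9me2 folds.

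Enzyme-with-mark places crowded near assembly gaps, the unsequenced stretches at centromeres, telomeres and short arms. Within 1 Mb of a gap of at least 10 kb lay 615 of 755 (81.5%), compared with 17.6% of enzyme-only peaks, 58.6% of mark-only peaks and 11.1% of evenly spaced genome positions. The 18 fullest stretches of 1 Mb held 50% of them, whereas 739 were needed for the enzyme-only peaks. The fullest of these stretches, beginning at 42 Mb of chromosome 10, held 57 enzyme-with-mark peaks. By chromosome, the share of V5 peaks with the mark was highest on Y, at 28.8% (57 of 198), followed by 17.4% on 16, 15.9% on 22 and 12.9% on 21, and the interval of Y (22.9% to 35.5%) overlapped that of 22 but not those of 16 and 21. It was lowest on 15 (0.977%), 3 (0.984%) and 6 (0.993%).

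**Figure D3:**
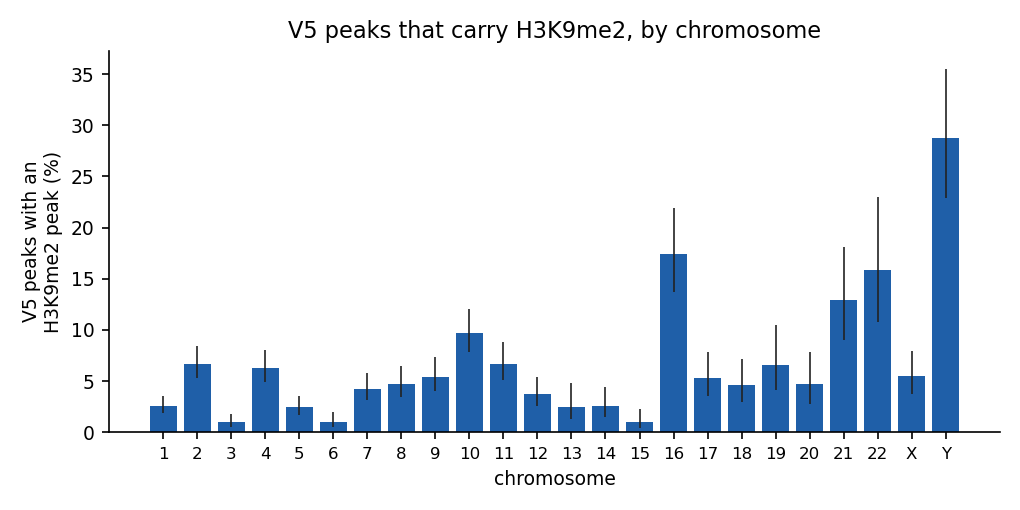
Share of V5 peaks of the double-mutant line that overlap an H3K9me2 peak (percent, y axis) on each nuclear chromosome (x axis), with 95% Wilson intervals. Chromosome Y stands at 28.8%, and chromosomes 3, 6 and 15 stand just under 1%.

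The string ATTCCATTC, which occurs in the simple satellite repeats of pericentromeric chromatin, was found on either strand in 198 of 748 enzyme-with-mark windows (26.5%). It was found in 1.33% of enzyme-only windows, 14.3% of mark-only windows and 0.324% of all 14221866 windows of that length that tile the genome. The telomere string TTAGGGTTA was present in 8 enzyme-with-mark windows (1.07%) and 4 enzyme-only windows (0.0285%), with 0.115% over the genome. No stretch of 51 bases, the read length, was unique in the genome in 16.7% of the enzyme-with-mark and 16.2% of the enzyme-only windows, against 2.28% of the genome windows. Reads cannot be assigned to a single place there. On the mitochondrial genome, 2 of 7 V5 peaks overlapped the 2 H3K9me2 peaks, with V5 folds of 2.93 and 3.08 and H3K9me2 folds of 3.69 and 3.79. This is an overlap of called peaks only, and neither the enzyme nor the mark was shown to be present there.

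Enzyme-only places had another composition. Their windows had a median GC content of 56.7%, against 39.8% for both the enzyme-with-mark windows and the genome windows. They lay in introns of protein-coding genes in 42.5% of cases and between genes in 36.0%, close to the 41.4% and 38.0% of the genome positions. A match to RN7SL2, the gene of the 7SL RNA from which the Alu repeat family descends, was found in 41.0% of enzyme-only windows (5758 of 14030), in 2 of 748 enzyme-with-mark windows and in 5.18% of genome windows. CTAAAAATA, a string of the MEF2 type, was found in 33.4% of enzyme-only windows, in 0.668% of enzyme-with-mark windows and in 3.84% of the tiled genome. Among enzyme-only windows without a match to RN7SL2 it was found in 10.2%, and among such genome windows in 2.25%. The E-box CACGTG was present in 1.94% of enzyme-only windows, 0.936% of enzyme-with-mark windows and 1.83% of the genome. The E2F-type strings TTTGGCGC or TTTCCCGC were present in 0.285%, 0.401% and 0.156%, with overlapping intervals for the 2 classes.

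**Figure D4:**
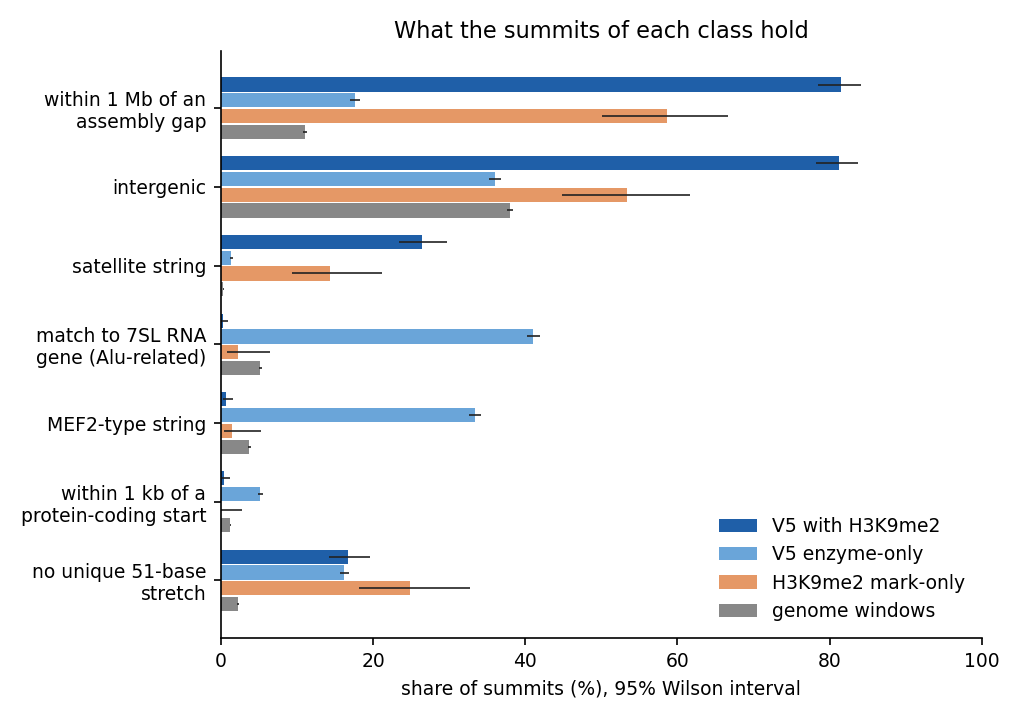
Share of summits or summit windows (percent, x axis, with 95% Wilson intervals) that hold each feature (y axis) in enzyme-with-mark V5 peaks, enzyme-only V5 peaks, mark-only H3K9me2 peaks and evenly spaced genome windows. Enzyme-with-mark peaks lead for nearness to assembly gaps (81.5%) and the satellite string (26.5%), and enzyme-only peaks for the match to the 7SL RNA gene (41.0%) and nearness to gene starts (5.19%).

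Most enzyme-only summits were far from any marked place. The median distance from a V5 summit to the nearest H3K9me2 peak was 4581 kb over all V5 peaks and 5069 kb over enzyme-only peaks (quartiles 1586 and 11892 kb), against 5835 kb for genome positions. When both lists were held to a −log10 q of at least 10, the median over all V5 peaks was 0.155 kb. Within 1 kb of an H3K9me2 peak lay 187 enzyme-only summits (1.33%), where 0.0537% of the genome lies. Within 100 kb lay 6.58% of them and 1.97% of the genome, and within 5 Mb 49.6% and 45.2%. Of the enzyme-only peaks, 199 had an edge within 1 kb of an H3K9me2 peak. These 199 had a median fold of 3.94, a median −log10 q of 8.99 and a median GC content of 42.3%, and 83.4% of them lay within 1 Mb of an assembly gap, against 16.7% of the other enzyme-only peaks. At the edge of the rule, 13 enzyme-only peaks were separated from an H3K9me2 peak by up to 100 bp, the nearest by 54 bp on chromosome X, and no enzyme-with-mark peak overlapped by 10 bp or less.

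**Figure D5:**
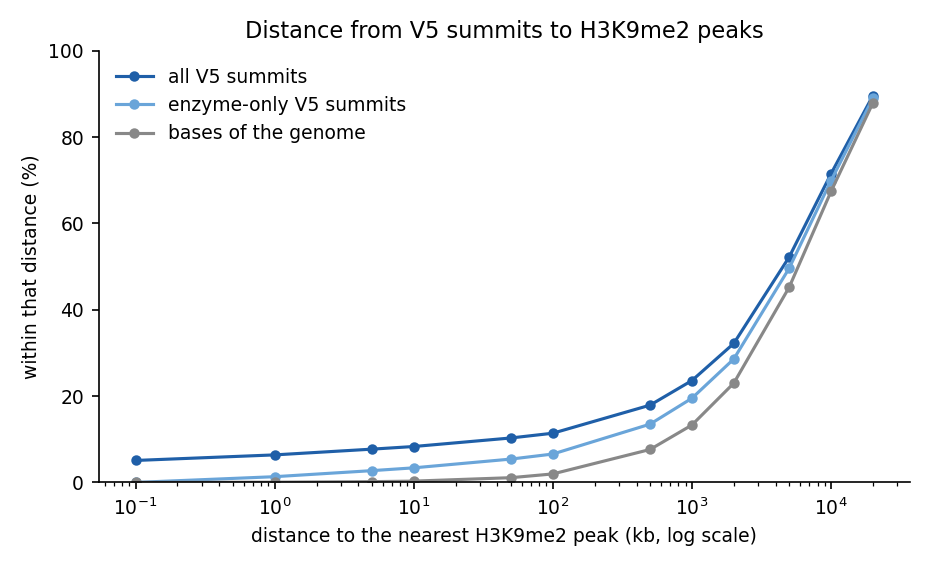
Share of all V5 summits, of enzyme-only V5 summits and of the bases of the genome (percent, y axis) that lie within a given distance of an H3K9me2 peak (kb, log scale, x axis). The enzyme-only curve is at 1.33% at 1 kb, above the genome's 0.0537%, and the curves come close to each other at 5 Mb, at 49.6% and 45.2%.

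Many of the strongest enzyme-only places matched the ribosomal RNA repeat. This comparison was chosen after the values of the named places were seen. The reference has the ribosomal repeat on the unplaced contig GL000220.1, where it was located by the 5.8S RNA pseudogene RNA5-8SP2 of the annotation. A match to it was found in 9 of the 18 enzyme-only peaks with a −log10 q of at least 30, in 11 of 288 from 10 to 20 and in 0 of 6909 under 3. Over all classes it was found in 35 of 14030 enzyme-only windows (0.249%), 13 of 748 enzyme-with-mark windows (1.74%), 0 of 133 mark-only windows and 5 of 57175 genome windows (0.00875%). Reads of the ribosomal genes themselves, which are repeated in many copies, can map to such places.

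All of the 5 highest-ranked enzyme-only peaks matched the ribosomal repeat. In the intron of GCNT1, which encodes a glycosyltransferase of mucin-type glycans, V5 had a fold of 21.4 and 95.7% of 185 bases were identical to the repeat. The V5 folds there were 13.5 in WT, 7.6 in K450R and 13.3 in K451R, native EHMT1 had 18.1, and H3K9me2 was called in the 3 other lines with folds of 10.5, 9.5 and 14. The place at chr4:70296617-70296793, whose nearest protein-coding gene was UGT2B4, had a V5 fold of 24.6 in the double-mutant line and H3K9me2 folds of 7.82, 8.23 and 10.8 in WT, K450R and K451R. In the intron of MYO1D, an unconventional myosin gene, V5 had a fold of 18.8 and H3K9me2 had 11.2, 9.41 and 13.8 in those lines. In MIR663AHG, at chr20:26188796-26189171, V5 had a fold of 12.3 and the nearest H3K9me2 peak of the double-mutant line was 0.846 kb from the summit. The place at chr12:127650431-127650705, in a long non-coding RNA gene, had a V5 fold of 17.1 and H3K9me2 in WT and K451R only. These places were thus enzyme-only in the double-mutant line while H3K9me2 was called at them in 2 or 3 of the other lines.

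The shared places with a ribosomal match had more V5 than H3K9me2 signal in the double-mutant line. Of the 10 shared peaks with the lowest H3K9me2 fold relative to V5, 6 matched the repeat. Between genes near CARTPT, at chr5:71146701-71146975, the V5 fold was 31.2 and the H3K9me2 fold 5.7. In an intron of DLG2, a scaffold gene of synapses, the V5 fold was 25.8 and the H3K9me2 fold 9.09. In an intron of PDE3A, a phosphodiesterase gene, they were 25 and 9.49, and in an intron of UNC45B, a myosin chaperone gene, 21.0 and 7.74. Over the 13 shared places with a match, the H3K9me2 fold divided by the V5 fold had a median of 0.559 (range 0.183 to 1.37), against 1.06 (quartiles 0.935 and 1.19) over the 744 others. At those of the 13 called with both antibodies in another line, the median was 1.00 in WT (11 places, 0.783 to 1.23), 1.15 in K450R (10 places, 0.787 to 1.46) and 1.00 in K451R (11 places, 0.826 to 1.48). Near CARTPT, for example, the H3K9me2 fold was 18.3 in WT, 14 in K450R and 23 in K451R. Estimated depth differed as well, with V5 the deeper list in the double-mutant line and H3K9me2 the deeper one in the 3 other lines. The part of depth in these ratios was not tested. With 1 list per group, this difference has no replicate check.

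The share of enzyme-only places that carried the mark in another line also rose with strength. Of the 57 enzyme-only peaks with a −log10 q of 20 or more, 38 (66.7%) overlapped an H3K9me2 peak of at least 1 other line and 42 (73.7%) a native EHMT1 peak. Of the 291 from 10 to 20, 49.8% and 51.9% did. Under 3, these were 10 and 27 of 6909. Over all strengths, 373 enzyme-only peaks (2.66%) had the mark in another line and 57 in all 3. In all, 13456 (95.8%) overlapped no peak of any other list.

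Near gene starts the enzyme was found almost only without a called mark, as were 94.9% of all V5 peaks. A start is that of a protein-coding gene, and a summit within 1 kb of it is counted. Of the enzyme-only summits, 728 (5.19%) were this near, as were 3 enzyme-with-mark summits (0.397%), no mark-only summit and 1.26% of genome positions. The difference of 4.79 percentage points between enzyme-only and enzyme-with-mark had an interval of 4.21 to 5.37. Without windows that match RN7SL2, an alternative chosen after seeing the data, it was 7.89 percentage points. Of 20163 protein-coding genes, 783 (3.88%) had an enzyme-only summit this near and 3 (0.0149%) a summit with the mark. The 728 promoter peaks had a median GC content of 67.7% and a median fold of 4.83. Of them, 33 (4.53%) overlapped a native EHMT1 peak, and 3 overlapped an H3K9me2 peak of another line. Their median fold lay under the 5.28 that an H3K9me2 peak needed on the genome-wide background. Absence of the mark at these starts was therefore not shown.

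The 3 gene starts with enzyme and mark were those of SNX16, FAM230A and TAF11L13. At SNX16, a sorting nexin gene, the V5 fold was 15.9 and the H3K9me2 fold 8.7, at 0.351 kb from the start. At FAM230A they were 10.0 and 12.1, in a window without any unique stretch of 51 bases. At TAF11L13, one of a cluster of near-identical TAF11-like genes, they were 5.31 and 5.41, and a second V5 summit 0.539 kb from the same start, without the mark, had a fold of 12.8. Reads of such copies could be split among them by the mapping.

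The 12 strongest enzyme-only summits near gene starts had V5 folds from 4.64 to 13.4. NPAS4, a transcription factor gene switched on by neuronal activity, had a V5 fold of 13.1 at 0.751 kb from its start, and native EHMT1 had 15.9 there. IQSEC3, a synaptic exchange factor gene, had 13.3, with 14.2 for native EHMT1. HTR5A, a serotonin receptor gene, had 13.4 at 0.141 kb, with 16.7 for native EHMT1. At CPLX2, which regulates fusion of synaptic vesicles, V5 had 9.09 and native EHMT1 9.17, and at BARHL1, a homeobox gene of the developing nervous system, they had 7.85 and 12.4. At none of these 5 starts was H3K9me2 called in any line.

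The other strongest starts had various roles. CDC27, a subunit gene of the complex that drives cells out of mitosis, had a V5 fold of 12.4 and H3K9me2 only in the K451R line, with 13.2. RAB37, a GTPase gene of secretory vesicles, had 10.5, with 8.66 for native EHMT1. RGPD2, one of several copies related to RANBP2, had 9.09, with 17.9 for native EHMT1. PAXBP1 had 9.09 and UTP20, a gene of ribosome assembly, 8.99, and neither had a peak in any other list. TAF11L3, a neighbor of TAF11L13, had 4.64, in a window with no unique stretch of 51 bases.

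The strings of RE1, the element bound by REST, occurred in enzyme-only windows and in none with the mark. The left part, TTCAGCACC, was present in 57 enzyme-only windows (0.406%, against 0.194% of the genome) and the right part, GGACAGCGC, in 44 (0.314%, against 0.0286%). Neither was found in the 748 enzyme-with-mark windows, which allows up to 0.511%, nor in the 133 mark-only windows. Both parts were present in 10 enzyme-only windows, and 9 of these overlapped a native EHMT1 peak. Of the 91 windows with either part, 53 (58.2%, interval 48.0% to 67.8%) overlapped one, and of the 13939 with neither, 364 (2.61%, 2.36% to 2.89%). Of the 91, 37 (40.7%) lay within 1 kb of a gene start, against 691 (4.96%) of the 13939 with neither. Of the elements with both parts in the same orientation and at most 12 bases apart, 5 that lay inside a gene are shown 5′ to 3′ on the strand that holds them, with both searched parts in capitals.
GRIA2 intron, chr4:158141541-158141560, minus strand: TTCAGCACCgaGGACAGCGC
PTPRN intron, chr2:220173042-220173061, minus strand: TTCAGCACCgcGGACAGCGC
UNC13A, in its UTR, chr19:17799149-17799174, plus strand: TTCAGCACCgggggcgcGGACAGCGC
NTSR2 coding exon, chr2:11810080-11810105, plus strand: TTCAGCACCacgtgcgcGGACAGCGC
MIR7-3HG exon, chr19:4769637-4769662, plus strand: TTCAGCACCaaatatccGGACAGCGC

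The spacing between both parts was 2 bases in GRIA2 and PTPRN and 8 in UNC13A, NTSR2 and MIR7-3HG. The V5 fold was 4.89 at GRIA2, which encodes a subunit of AMPA glutamate receptors, and 4.93 at PTPRN, a gene of secretory vesicles. It was 5.13 at UNC13A, which primes synaptic vesicles, 3.86 at NTSR2, a neurotensin receptor gene, and 7.49 at MIR7-3HG, the host gene of a neuroendocrine microRNA. All but UNC13A had a native EHMT1 peak. Of these 5 folds, those of MIR7-3HG and NTSR2 lay outside the enzyme-only quartiles of 4.37 and 5.43.

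Of the 25 genes of the neuronal and neuroendocrine list, 5 had an enzyme-only summit within 1 kb of the start, beside 3.88% of all protein-coding genes, and none had one with the mark. They were SYP, UNC13A, CHGB, SCG3 and VGF. CHGB and SCG3, granin genes of secretory vesicles, had V5 folds of 5.98 and 5.18 with native EHMT1 at both, and VGF, another such gene, had 3.83. SYP, the synaptophysin gene, had 5.94. Farther in, SNAP25, a gene of synaptic vesicle fusion, had a fold of 8.42 at 47.3 kb from its start, with the left RE1 part and native EHMT1, and CELSR3 had 4.73 at 1.00 kb. Over gene bodies, 10 of the 25 overlapped an enzyme-only peak, beside 21.2% of all genes. This list, like the gene lists below, was chosen with earlier results of these data known, so its shares are a description and not a test. Gene length was not matched in any of these counts, and a match to a string is a description, not a binding site.

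A further list held 7 genes, namely HTR5A, PPP1R14C, STXBP3, LIPT2, FRMPD2, MCM7 and EHMT1. Of these, 3 had an enzyme-only summit within 1 kb of the start, beside 3.88% of all protein-coding genes. Beside HTR5A, these were LIPT2, a lipoyl transferase gene, with a V5 fold of 6.57, and STXBP3, a syntaxin-binding protein gene, with 5.45. PPP1R14C, an inhibitor gene of protein phosphatase 1, held V5 peaks with folds of 10.2 and 6.5 in its intron at 54.7 and 55.1 kb from the start. No H3K9me2 peak of the double-mutant line was called at these 4 genes, and none of the peaks of either list fell within 1 kb of FRMPD2 or MCM7 or in their bodies. EHMT1 itself held an enzyme-with-mark peak in an intron, 97.4 kb from its start, with a V5 fold of 9.09 and native EHMT1 there, and 4 enzyme-only peaks with folds from 4.04 to 5.57. PPP1R14C, LIPT2, FRMPD2, MCM7 and EHMT1 are named in the study's own text, whereas HTR5A and STXBP3 were not found in it. The list is not independent evidence.

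Among 28 genes of H3K9 methylation, 1 (3.57%) had an enzyme-only summit near the start, a share close to the 3.88% of all protein-coding genes. It was KDM3A, which encodes a demethylase of H3K9me2, with a fold of 5.98. In the bodies of the 28 genes, 11 overlapped an enzyme-only peak, or 39.3% beside 21.2% of all genes. Only EHMT1 overlapped an enzyme-with-mark peak, beside 0.372% of all genes. Of 15 genes of luminal prostate cells, none had a V5 summit near its start, where 3.88% of all genes had an enzyme-only one. In their bodies, 5 (33.3%) overlapped an enzyme-only peak, beside 21.2% of all genes. ACP3, the prostatic acid phosphatase gene, had one with a fold of 5.98. FOXA1, the pioneer factor of luminal cells, had an enzyme-only peak with a fold of 5.97 in a coding exon and a mark-only peak with a fold of 5.68 beside it, at 3.99 and 3.79 kb from the start. Of 20 E2F target genes, none had a summit of any class near its start, where 3.88% of all genes had an enzyme-only one. In their bodies, 4 overlapped an enzyme-only peak, a share close to the 21.2% of all genes.

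Large gene families were counted in the same way. Of 249 ZNF genes on chromosome 19, 415 olfactory receptor genes and 53 clustered protocadherin genes, none overlapped an enzyme-with-mark or mark-only peak, beside 0.372% and 0.203% of all genes, so that few or none would be met at the share of all genes. Enzyme-only peaks overlapped 16.1%, 2.41% and 62.3% of them, beside 21.2% of all genes, and the protocadherin genes share long overlapping transcripts, so that 1 peak can count for many. Peaks called as narrow summits do not record broad domains of a mark.

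The 75 protein-coding genes with an enzyme-with-mark peak in their bodies mostly held 1, and 5 held more. ANKRD30BL, on chromosome 2, held 7, with V5 folds from 5.52 to 11.9 and H3K9me2 folds from 5.21 to 16.1. CDC27 held 4 with V5 folds from 7.12 to 14.8, next to the 4 enzyme-only ones that include its start. ART1, PRDM15 and PRKCA held 2 each.

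Mark-only places were weaker than shared ones, and some lay near a V5 peak. Their median H3K9me2 fold was 6.04 (quartiles 5.22 and 6.93), against 7.23 for H3K9me2 peaks with V5, and their median −log10 q was 5.46 against 13.3. A V5 peak lay within 1 kb of 29 of the 133 (21.8%) and within 10 kb of 63 (47.4%), with a median gap of 11.0 kb. The share of the genome that lies as near to a V5 peak is not given here, so these shares have no comparison. A native EHMT1 peak overlapped 32 of them (24.1%), and an H3K9me2 peak of another line 57 (42.9%), while 71 (53.4%) overlapped no other list. Introns of protein-coding genes held 45 of them (33.8%), against 9.67% of enzyme-with-mark V5 peaks.

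The 5 highest-ranked mark-only places lay near V5 peaks. On chromosome 19, at chr19:27739424-27739524, the H3K9me2 fold was 4.41, and the summit was 0.525 kb from a V5 peak. At chr2:89870388-89870492 the fold was 5.33 and the distance 0.472 kb, and at chrY:13485883-13486001 4.14 and 0.187 kb. In an intron of PSMD14-DT, chr2:162136369-162136505, the fold was 7.97 and the distance 1.19 kb. That place had H3K9me2 in all 4 lines, V5 in the K451R line with 7.14 and native EHMT1 with 7.34. Near TRIM48, at chr11:55024946-55025086, the fold was 9.85, a V5 peak lay 1.34 kb away, and no other list had a peak there. Beyond these, the mark-only peaks with the highest −log10 q inside protein-coding genes, chosen after their values were seen, were in introns of PRKAR1B, a regulatory subunit gene of protein kinase A, with a fold of 10.4 and the nearest V5 peak 36.1 kb away, and of CHL1, a neural adhesion gene, with 9.88 and 222 kb. The CHL1 window held no unique stretch of 51 bases.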

How the data were processed

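ChIP-seq peak lists of LNCaP cells were used. Per the study's methods and the submitters' processing notes, 51-nt single-end reads were checked with FastQC 0.11.9, mapped to hg19 with BWA 0.7.9a and SAMtools 1.2, and peaks were called with MACS2 2.1.0. The authors deposited for each peak a fold enrichment (summit pileup over local background, each with 1 read added, a ratio), with −log10 p and −log10 q (minus logarithms of the p-value and q-value). Pileup and background were solved from the deposited fold and −log10 p for 100% of peaks of both lists, and background times 2.7 Gb over 100 bp estimated the reads. Backgrounds in steps of 0.01, in 99.8% of V5 and 100% of H3K9me2 peaks, are what ChIP reads alone would give, but whether an input control was used is not given in the sources used here, and the highest pileup of 200 is the limit with 1 read per position and strand.

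Coordinates are 1-based on GRCh37 (hg19), with GENCODE 44 genes lifted to it. Overlap meant 1 bp or more. Windows reaching 100 bp to each side of summits were compared with windows spaced every 50 kb. Repeat matches came from blastn 2.17.0 (e-value limit 1e-10), and strings were searched on both strands. Named places were the 5 highest by −log10 q in each class, the gene starts with enzyme and mark, and the 12 strongest enzyme-only gene starts. No mark-only summit was near a gene start. Members and gene lists were chosen with earlier results of these data known. Intervals are 95% Wilson, of medians from order statistics, and of the promoter difference a normal approximation. Scripts for overlap and depth were tested on simulated data. Python 3.11.15, pandas 2.3.3, numpy 2.4.6, scipy 1.17.1 and numba 0.67.0 were used.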

Additional observations from a re-analysis of the deposited data

How the results depend on the processing

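Of 60 recomputed values, 25 stayed within the 95% interval of the reported value, 35 moved outside it and none changed direction. The share of V5 peaks with the mark, 5.12%, became 26.7% when both lists were held to a −log10 q of 5 or more and 49.3% for 10 or more, 7.74% at a fold of at least 5, 64.4% with equal list lengths, 4.59% with 50% reciprocal overlap, 6.46% with H3K9me2 peaks widened by 1 kb, 7.64% with any of the 4 H3K9me2 lists, 8.34% without RN7SL2 matches and 6.88% with V5 held to the lowest −log10 p of the H3K9me2 list. The last 2, and the starts of all transcripts below, were chosen after seeing the data. The share of H3K9me2 peaks with V5, 85.3%, became 89.9% for a −log10 q of 10 or more, 76.1% at a fold of at least 5, 66.2% with equal lengths, 75% with reciprocal overlap, 88.5% when widened and 73.6% with any H3K9me2 list. The median distance of 4581 kb was 273 and 0.155 kb at −log10 q of 5 and 10, 0.0 kb with equal lengths, 2924 kb with any H3K9me2 list, 5402 kb without windows lacking a unique 51-base stretch and 4283 kb with the common −log10 p. The promoter difference of 4.79 percentage points was 3.26 and 2.95 at −log10 q of 5 and 10, 3.95 at a fold of 5, 3.69 with equal lengths, 5.45 without windows lacking a unique stretch, 6.51 within 5 kb, 6.09 with the starts of all transcripts and 7.89 without RN7SL2 matches. The ratio of median folds, 1.43, was 1.13 and 1.11 at −log10 q of 5 and 10, 1.59 at a fold of 5, 1.12 with equal lengths, 1.23 when widened and 1.28 with any H3K9me2 list. Fewer weak V5 peaks enter under the stricter cutoffs by construction; for the other shifts, the cause was not tested.

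No paired analysis was possible because the lists hold no values per replicate, and for the same reason leaving out replicates in turn was not run. The H3K9me2 list rests on an estimated 8.79 M reads, so a place without a peak is not shown to lack the mark.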
